A study of Mus musculus with 6 samples.

Results

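The genes examined here encode the replication-dependent core histones H2A, H2B, H3 and H4 of the mouse. Membership went by name: every gene on the array whose symbol begins with H2ac, H2bc, H3c or H4c and ends in a number. This set of genes was itself chosen with earlier results of these data known. Of 19057 genes with a symbol on the array, 50 matched, read by 78 probes, and the letters before the number gave the family: 16 H2A genes (23 probes), 13 H2B genes (18 probes), 9 H3 genes (18 probes) and 12 H4 genes (19 probes). The mouse RefSeq gene table holds 58 genes with such names, so 8 of them had no probe under their symbol.

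DNA is wound around a protein core made of paired H2A-H2B dimers and an H3-H4 tetramer. A dividing cell makes these proteins mainly in S phase, from many near-identical genes that lie in clusters and have no introns. Their messages normally end in a stem-loop bound by SLBP in place of a poly(A) tail, and the factor NPAT, driven by cyclin E and CDK2, switches the clusters on. YY1 is a zinc finger factor, and in the mouse it has been reported to bind an element inside the coding part of replication-dependent histone genes.

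RNA came from splenic follicular B cells selected with an antibody to CD23 from 3 C57BL/6 mice with floxed Yy1 alleles (yy1 f/f), in which Cre recombinase can cut the gene out. The cells of each spleen were divided. One portion received mock treatment and the other TAT-CRE, a Cre protein carried into cells by a peptide, and both were grown for 72 hours with LPS, IL4, OPI and 20% serum, a stimulus that makes B cells divide and switch heavy chain class. This gave 3 mock and 3 TAT-CRE arrays, and mock and TAT-CRE arrays of the same number hold cells of the same mouse. All 6 arrays carry the floxed alleles, and TAT-CRE on unfloxed cells was not analysed here, so exposure to the protein and loss of Yy1 cannot be told apart. In cultured cells measured in bulk, fewer cells that express a gene and less RNA per cell cannot be told apart either, and the labels give no count of cells in S phase.

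Yy1 checked the labels. Its probe read 455, 409 and 439 in the mock cells of mice 1, 2 and 3 and 153, 140 and 134 in their TAT-CRE cells. Every TAT-CRE value lay below every mock value and below its array's background level, set by receptor genes of smell not known for use in B cells. From the deposited intensities Yy1 was therefore at least 2.49-fold lower (limma adjusted p = 1.91e-07). Above background lay 39.8% to 44.4% of the probes of an array. B cell markers were present. The Cd79b probes averaged 15700 and 13120 in mock and 22320 and 17900 in TAT-CRE cells, and those of Fcer2a, which encodes CD23, averaged 9814, 1507 and 767 and then 8182, 1026 and 716.5. Of 10 tested B cell marker probes 2 fell, or 20%, against 7.15% of all probes tested. The 2 were 1 of Fcer2a, by 0.58, and 1 of Blnk, by 0.67 on the log2 scale. The summed intensities of the B cell list were 45370 to 62920 in mock and 58200 to 62180 in TAT-CRE cells. Probes of the T cell genes Cd3e, Cd3d, Cd3g and Cd8a were above background on no array, while the brighter Thy1 probe averaged 5859 in mock and 5290 in TAT-CRE cells. Of the 10 probes of the T cell list, 7 were above background on no array. The 2 tested probes were of 2 genes, so a T cell gene besides Thy1 was also above background. Neither probe was called. The summed intensities of the list were 6271 to 7729 in mock and 5549 to 8027 in TAT-CRE cells. Of 13 monocyte and macrophage probes 3 were tested and none was called, with sums of 3431 to 4570 and 3722 to 4087. Of 9 plasma cell probes 4 were tested and 1, of Jchain, rose by 0.64 (25%, against 6.56% of all probes tested). The sums were 19420 to 20320 in mock and 19840 to 21680 in TAT-CRE cells. The part of these cell types in the histone results was not tested.

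Most tested H2B, H3 and H4 probes rose in TAT-CRE cells, while tested H2A probes split into a few that rose and more that lay lower. Of the 78 histone probes, 59 were above the background level on at least 3 arrays and were tested, from 43 of the 50 genes. At an adjusted p under 0.05 in a limma fit with the mouse as a block, 36 rose and 5 fell, that is 61.0% and 8.47% of the histone probes tested, against 6.56% higher and 7.15% lower among all 19217 probes tested. The 36 comprised 13 of 14 H4, 11 of 12 H2B, 8 of 12 H3 and 4 of 21 H2A probes, and all 5 that fell were H2A. Of these, 1 H4 probe (H4c3) and 1 H2A probe (H2ac6) were above background on no mock array and entered the test only through the TAT-CRE arrays, where they are high. Without them 34 of 57 rose and 5 fell (59.6% and 8.77%), with 12 of 13 H4 and 3 of 20 H2A probes higher. The medians that follow cover all 59 tested histone probes, H4c3 and H2ac6 included. The median log2 difference was 0.94 for H4, 1.06 for H2B, 1.06 for H3 and -0.36 for H2A, beside 0.01 for all probes tested. Leaving out H4c3 and H2ac6, it was 0.91 for H4 and -0.38 for H2A. Log2 differences are TAT-CRE minus mock after background correction. Without that correction the medians over the 59 probes were 0.66, 0.90, 0.78 and -0.36. The sizes of the rises, which come from dimmer probes, therefore depend on it. The medians also depend on the background filter: over every probe of the families, those near background on all arrays included, they were 0.79 for H4, 0.90 for H2B, 0.21 for H3 and -0.34 for H2A.

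The H2A median lay below those of the other families in each mouse. In mice 1, 2 and 3 the median difference was 0.96, 0.95 and 0.90 for H4, 1.07, 1.02 and 0.97 for H2B, 1.08, 1.19 and 0.79 for H3, and -0.14, -0.41 and -0.36 for H2A. In all 3 mice, 13 of 14 H4, 11 of 12 H2B and 9 of 12 H3 probes were higher in TAT-CRE cells, against 5 of 21 H2A probes, while 13 H2A probes and 1 H2B probe were lower in all 3. The deposited intensities of the groups did not overlap for 37 histone probes in the higher and 11 in the lower direction, where all tested probes gave 16.4% and 15.5%. The medians and the counts of higher probes here include H4c3 and H2ac6. Members are not independent of each other, since genes of a family are close copies and a probe may read more than 1 of them. Probe sequences were not among the sources used here, so the share of signal from related genes was not tested. Whether labelling started from poly(A) tails is not stated either. That bears on which histone messages were read, so the differences may not be those of all histone message.

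**Figure D1:**
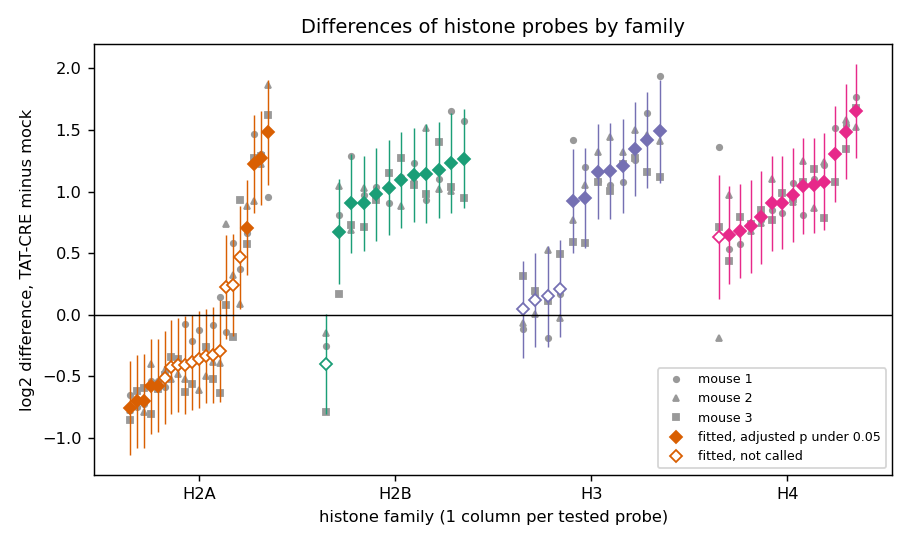
Log2 difference (TAT-CRE minus mock, vertical axis) of each tested histone probe, ordered within its family. Diamonds are fitted differences with 95% confidence intervals, filled where the adjusted p was under 0.05, and grey symbols are the 3 mice. H4 and H2B probes sit near 1 with 1 H2B probe below 0, H3 has 4 open symbols near 0, and most H2A probes lie between -0.76 and -0.30.

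H4 forms the tetramer with H3, and no tested probe of its genes had a difference below 0. Of 12 H4 genes, 10 were tested and 9 rose, while H4c8 and H4c14 had no probe above background on enough arrays. H4c18 had the largest difference of all histone probes. Its probe read 203, 228 and 204 in mock and 469, 481 and 451 in TAT-CRE cells, so the groups were far apart and each was tight. The log2 difference of 1.66 (1.28 to 2.04, 95% confidence interval) is a 3.16-fold difference after background correction (limma adjusted p = 1.5e-05). A second H4c18 probe rose by 0.97, from between 344 and 354 in mock to between 566 and 628 in TAT-CRE cells.

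H4c12 rose on both of its probes. One read 290, 265 and 302 in mock and 666, 607 and 623 in TAT-CRE cells, and the other 256, 296 and 332 against 560, 601 and 596. The values of the groups did not overlap on either probe, and the differences were 1.49 and 1.31 (SE 0.18 for each, limma adjusted p = 4.29e-05 and 0.000176). H4c11 rose by 1.05, from between 680 and 771 in mock to between 1220 and 1544, and H4c1 by 1.05, from between 952 and 1127 to between 1910 and 2139. H4c9 rose by 0.79, H4c17 by 0.72 and H4c4 by 0.68. All 3 probes of H4c6 rose, by 0.65, 0.91 and 0.91. H4c3 read 171, 168 and 157 in mock, not above background on any of these arrays, and 275, 272 and 204 in TAT-CRE cells. It entered the test only through the TAT-CRE arrays and was at least 1.43-fold higher on the deposited intensities. H4c2 was the only tested H4 probe not called (0.63 ± 0.24, SE, adjusted p = 0.0918), and it was higher in mice 1 and 3 (1.36 and 0.71) and lower in mouse 2 (-0.19).

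The calls of H4c4, H4c9, H4c17 and 1 H4c6 probe were lost without mouse 3, that of the H4c6 probe also without mouse 2. All 4 were lost too when every probe of the array was tested, and that of H4c4 with no background correction. The number of H4 calls was 9 without mouse 3, against 13 with all mice.

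Tested H3 probes rose apart from 3 bright ones, of H3c10, H3c13 and H3c14, and a dim one of H3c8. Another 6 of the 18 H3 probes were too near background to be tested. Of 9 H3 genes, all were tested and 6 had a probe that rose, and H3c8, H3c13 and H3c14 had none. The tested H3c8 probe read 198, 174 and 189 against 185, 210 and 197, differed by 0.15 and did not pass (adjusted p = 0.674). H3c1 read 596, 618.5 and 640.5 in mock and 1662, 1538 and 1312 in TAT-CRE cells. The groups lay far apart, with mouse 1 moving most, and the probe rose by 1.42 (1.02 to 1.81, limma adjusted p = 8.61e-05). H3c6 rose by 1.16 with narrow groups, from 1257, 1178.5 and 1317 to 2563, 2801 and 2682. H3c4 rose by 1.20, from between 1084 and 1514 to between 2485 and 3088. Both tested H3c7 probes rose, by 1.17 on the brighter and 1.49 on the dimmer, and H3c3 rose by 0.92. In mouse 1 the differences of H3c3 and of the dimmer H3c7 probe were 1.42 and 1.94, larger than the 0.77 and 0.59, and the 1.41 and 1.12, in the other mice.

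H3c10 had 3 tested probes that disagreed. The middle one read 426, 320 and 364 in mock and 889, 736 and 749 in TAT-CRE cells and rose by 1.35 (SE 0.18, limma adjusted p = 0.000113). The dimmest rose by 0.95. The brightest read 11678, 11734 and 8664 against 13123, 11518 and 12140, groups that overlapped, with a difference of 0.21 (95% confidence interval -0.18 to 0.61, adjusted p = 0.512). The tested probes of H3c13 and H3c14, also above 10000, differed by 0.04 (-0.35 to 0.43) and 0.12 (-0.26 to 0.50). Each upper bound lies below the 1.06 median of the 12 tested H3 probes, though above the 0.21 median of all 18. A single value for H3c10 therefore depends on the probe, and the sources used here do not say which transcripts each probe reads.

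H2B pairs with H2A in the dimer, and its tested probes rose almost without exception. Another 6 of its 18 probes were too near background to be tested. Of 13 H2B genes, 9 were tested and 8 rose. H2bc6 rose on both tested probes, by 1.27 and 0.98. On the first it read 543, 634 and 617 in mock and 1430, 1409 and 1105 in TAT-CRE cells, with no overlap and the smallest difference in mouse 3 (0.95). H2bc7 rose by 1.23, from 380, 448 and 416 to 995.5, 806 and 756.5 (limma adjusted p = 0.000439). The probes of H2bc12 agreed closely. They rose by 1.18 and 1.13, and the brighter read 710, 647 and 634 in mock and 1546, 1285 and 1219 in TAT-CRE cells. H2bc9 rose by 1.09, H2bc11 by 1.03, H2bc14 by 0.90 and H2bc15 by 0.90. H2bc21 rose on both probes, by 1.14 and 0.67, and the second call was lost without mouse 1 or 2 (adjusted p = 0.0874 and 0.156).

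H2bc4 was the exception in this family. Its tested probe read 420, 424 and 585 in mock and 366, 391 and 378 in TAT-CRE cells, lower in all 3 mice but most in mouse 3 (-0.79, against -0.26 and -0.15). The difference of -0.40 did not pass (95% confidence interval -0.80 to 0.01, adjusted p = 0.191). H2bc1, which encodes the testis H2B, was above background on no array, nor was H2bc8, and H2bc3 and H2bc18 were above it on 1 and 2 TAT-CRE arrays.

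H2A probes fell, rose or did not pass, and the fallers were 5 of 15 tested genes. H2ac15 read 4878, 5415 and 4695 in mock and 3141, 3205 and 2631 in TAT-CRE cells, with no overlap, a difference of -0.76 (95% confidence interval -1.14 to -0.38, limma adjusted p = 0.00957). The dimmer H2ac7 probe fell by 0.71, from 3546, 3022 and 2274 to 2143, 1840 and 1511. Its groups nearly met, at 2143 and 2274, but each mouse fell by a similar amount, with differences of -0.75, -0.75 and -0.62. The dimmer H2ac12 probe fell by 0.70, from 1979, 1641 and 1365 to 1235, 989 and 934. H2ac11 fell by 0.58, from 3114, 3534 and 2570 to 2176, 2367 and 1726, and the brighter H2ac10 probe fell by 0.58, from 49458.5, 56355 and 60186 to 33962.5, 42568 and 34504.

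These 5 calls were near the threshold, with adjusted p between 0.00957 and 0.0439. None was kept in every alternative. No H2A probe passed as lower without mouse 3, while 3 did without mouse 1 and 4 without mouse 2. With all probes of the array tested, dim ones included, none passed as lower. Without the mouse in the model H2ac11 was lost (adjusted p = 0.0675), which left 36 histone probes higher and 4 lower, against 6.17% and 6.41% of all probes. With a variance model that follows brightness 10 passed, all lower, and with no background correction 8. In none of 12 alternatives was a histone probe called in the direction opposite to that given here.

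Of the other H2A probes, 9 lay between -0.51 and -0.30 and did not pass, for H2ac21, H2ac22, H2ac24, both H2ac13 probes and the brighter of H2ac7, H2ac12 and H2ac20 and the dimmer of H2ac10. H2ac21 read 4951, 4157 and 3228 in mock and 3316, 3063 and 2324 in TAT-CRE cells (-0.51, adjusted p = 0.0699) and was lower by 0.45 to 0.59 in each mouse. H2ac8 differed by 0.22 and the dim H2ac20 probe by 0.24. H2ac1, which encodes the testis H2A, was not tested.

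The H2A probes that rose belonged to H2ac18, H2ac19, H2ac6 and H2ac4. H2ac18 read 277, 265 and 271 in mock and 547, 496 and 528 in TAT-CRE cells, both groups tight (difference 1.27, SE 0.18, limma adjusted p = 0.000173). A dimmer H2ac18 probe differed by 0.46 and did not pass (adjusted p = 0.139), and another was not tested. H2ac19, a neighbouring copy in the cluster on chromosome 3, rose by 1.22, from 181, 204 and 191 to 338, 304 and 331. H2ac4 rose by 0.71, from 352, 295 and 351 to 504, 465 and 477, a call lost without mouse 2 or 3 (adjusted p = 0.0546 and 0.0568). H2ac6 read 167, 137 and 145 in mock, above background on no mock array, and 237, 255 and 252 in TAT-CRE cells, which makes it at least 1.43-fold higher on the deposited intensities.

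**Figure D2:**
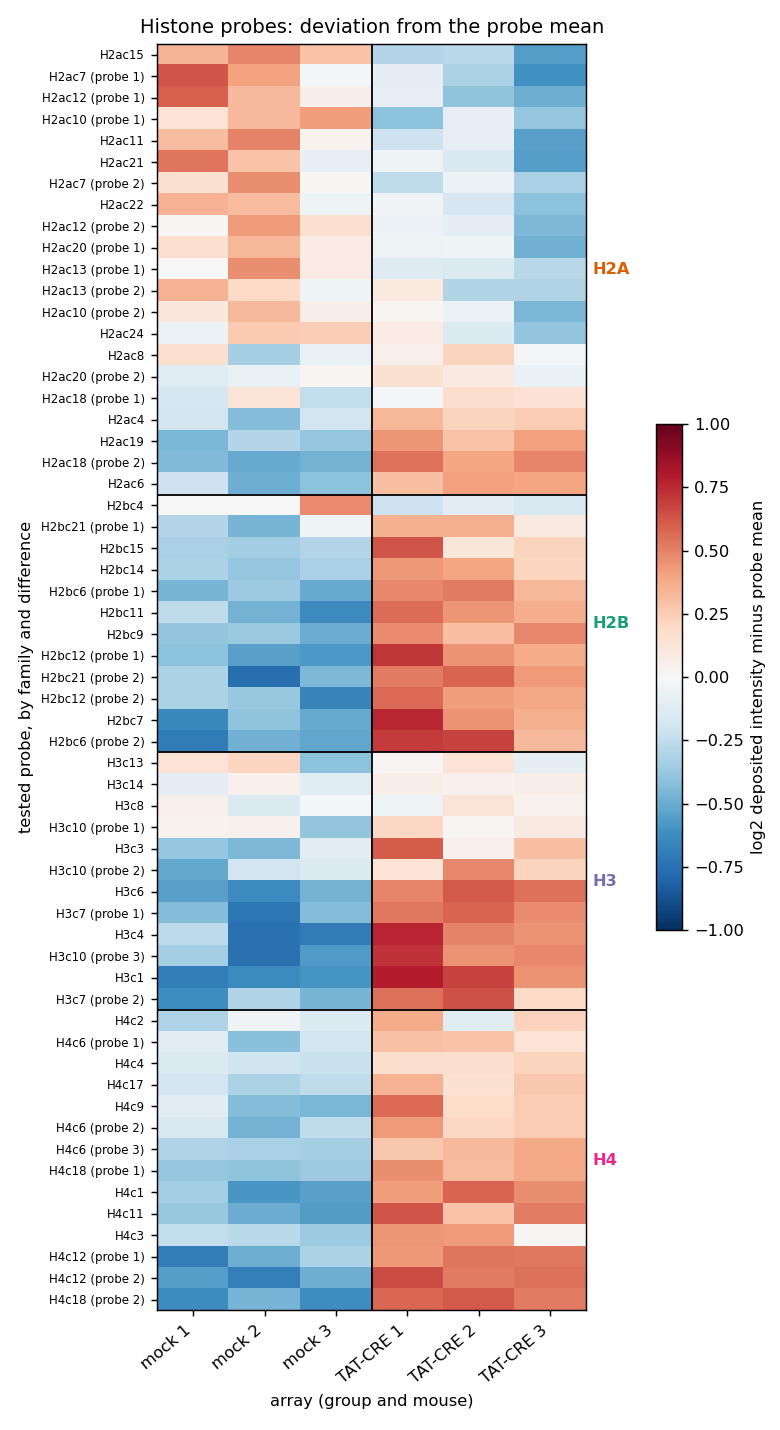
Log2 deposited intensity minus the probe's mean over the 6 arrays, for the 59 tested histone probes (rows, by family and difference) in each array (columns). Red is above and blue below the probe's mean. Most H2B, H3 and H4 rows turn from blue in the 3 mock arrays to red in the 3 TAT-CRE arrays, and most H2A rows run the other way.

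The direction of a histone probe went with its brightness, and the classes used here were set after the values had been seen. Among tested histone probes with a mean intensity under 500, 22 of 28 rose and none fell. The 22 include H4c3 and H2ac6, which were above background on no mock array and entered the test only through the TAT-CRE arrays. Between 500 and 2000, 14 of 15 rose and 1 fell, the H2ac12 probe. Between 2000 and 10000, 3 of 5 fell, all H2A, and above 10000, 1 of 11 fell and none rose, 8 of them H2A and 3 H3. Probes of other genes did not show this pattern. Their median difference was -0.01, 0.02, 0.03 and 0.02 in these classes, with 6.02%, 7.78%, 5.93% and 2.32% higher and 6.66%, 8.87%, 6.46% and 3.21% lower. Across the 59 histone probes, H4c3 and H2ac6 included, Spearman's rho between brightness and difference was -0.445, and across all 19217 probes it was 0.0412. These are descriptions across probes, which share arrays, and related probes may share target sequence.

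Family and brightness overlapped only in part. All 7 tested H2A probes under 500 had positive differences, from 0.22 to 1.27 for 6 of them, the other being H2ac6 with its bound. All 14 H2A probes above that were negative, from -0.76 to -0.30. Within the families rho was -0.482 for H2A (21 probes, H2ac6 included) and -0.357 for H3 (12 probes). It was 0.455 for H2B (12 probes) and 0.38 for H4 (14 probes, H4c3 included), and no H2B or H4 probe was brighter than 2000. The brightest histone probe, that of H2ac24, reached 64198, and the highest intensity in the table was 71566.4. How far bright signals are compressed, and how far a probe's brightness reflects shared target sequence, was not tested, and brightness does not rank genes, since it also depends on the probe.

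**Figure D3:**
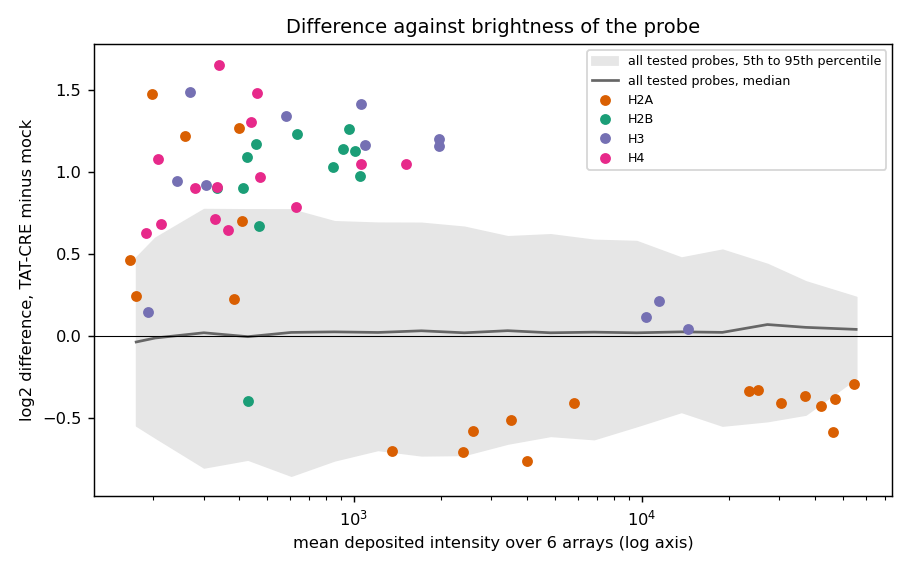
Log2 difference (vertical axis) of the tested histone probes against mean deposited intensity over 6 arrays (horizontal log axis), coloured by family. The grey band is the 5th to 95th percentile and the line the median of all 19217 tested probes in brightness bins. Histone probes under 2000 lie mostly well above the band's median, all H2A probes above 500 lie below 0, and 3 bright H3 probes lie close to 0.

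Many H2A and H2B genes of the clusters are neighbours that are read outward from a common stretch of DNA. An H2A and an H2B gene were neighbours 13 times in the RefSeq genes, and for 9 of these pairs the strands in the RefSeq promoter table showed that they point away from each other. Both genes had a tested probe in 4 of the 9, and in all 4 every H2A difference was below 0 and every H2B difference above 0. H2ac15 fell by 0.76 and H2bc15, 163 bases away, rose by 0.90. H2ac12 differed by -0.70 and -0.41 on its probes, and H2bc12 by 1.18 and 1.13, with 177 bases between them. H2ac11 fell by 0.58 and H2bc11 rose by 1.03 across 248 bases, and H2ac7 differed by -0.71 and -0.43 and H2bc7 by 1.23 across 173 bases. The 95% confidence intervals of the H2A and H2B differences did not overlap in any of the 4. In each of the 4, every H2A probe had a higher mean intensity than every H2B probe, nearest for H2ac12 at 1357 and H2bc12 at 1007.

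For 2 further pairs with values on both sides, the strand of 1 gene was not in that table. H2ac20 differed by -0.39 and 0.24, neither called, and H2bc21 rose by 1.14 and 0.67. In the remaining pair H2ac6 was at least 1.43-fold higher, as given above, and H2bc4 differed by -0.40 and was not called. H2ac6 was the dimmer of those probes. Opposite directions in neighbours thus went with brightness as well as with family, and the part of brightness was not tested.

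**Figure D4:**
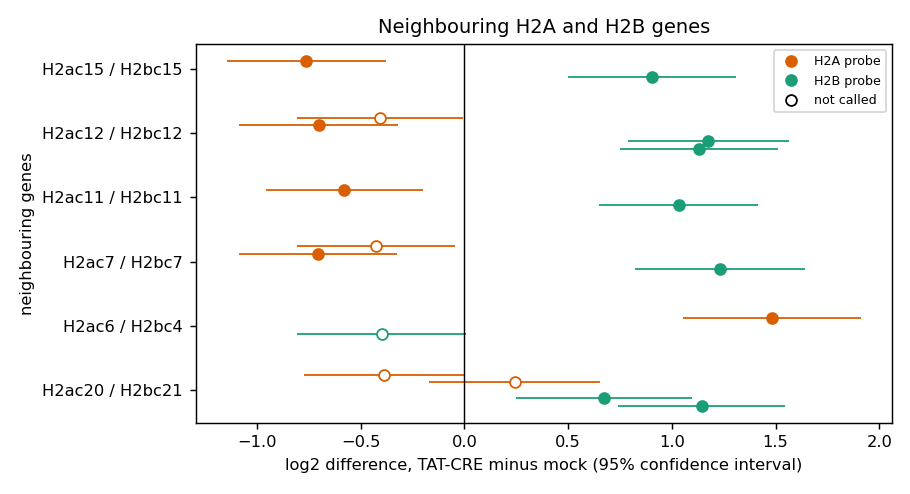
Log2 differences with 95% confidence intervals (horizontal axis) for the 6 neighbouring H2A and H2B genes with tested probes on both sides, filled where the adjusted p was under 0.05. H2A (orange) lies left of H2B (green) for 5 of the 6, and right of it for H2ac6 and H2bc4, where the plotted H2ac6 value is the fitted one of a probe above background on no mock array.

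Promoter sequences show what the neighbours share. They come from RefSeq, build GRCm38.p6, run 5′ to 3′ from 250 bases before to 50 bases after the gene's start, and cover 45 of the 50 genes. Capitals mark matches on either strand to the TATA box (TATAAA), the CCAAT box (CCAAT), the octamer (ATTTGCAT) typical of H2B promoters, and a YY1 core motif (AANATGGC). The windows of H2bc12 and H2bc15 are shown because they overlap those of H2ac12 and H2ac15 by 277 and 263 bases, and those of H4c18, H4c12 and H3c6 because these genes were among the clearest rises.
H2bc12, chr13:22035571-22035870, plus strand: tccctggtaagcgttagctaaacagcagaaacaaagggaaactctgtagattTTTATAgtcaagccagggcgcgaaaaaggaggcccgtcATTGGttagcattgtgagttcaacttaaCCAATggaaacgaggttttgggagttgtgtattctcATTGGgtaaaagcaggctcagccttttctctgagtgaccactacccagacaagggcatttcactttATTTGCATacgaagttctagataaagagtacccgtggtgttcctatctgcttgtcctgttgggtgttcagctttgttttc
H2bc15, chr13:21753826-21754125, plus strand: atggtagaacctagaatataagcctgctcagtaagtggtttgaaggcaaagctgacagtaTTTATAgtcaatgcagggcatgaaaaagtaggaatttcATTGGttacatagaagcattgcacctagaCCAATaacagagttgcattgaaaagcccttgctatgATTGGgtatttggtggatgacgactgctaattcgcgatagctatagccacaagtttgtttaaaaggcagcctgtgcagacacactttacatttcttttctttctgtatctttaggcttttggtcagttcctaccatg
H4c18, chr13:21832148-21832447, minus strand: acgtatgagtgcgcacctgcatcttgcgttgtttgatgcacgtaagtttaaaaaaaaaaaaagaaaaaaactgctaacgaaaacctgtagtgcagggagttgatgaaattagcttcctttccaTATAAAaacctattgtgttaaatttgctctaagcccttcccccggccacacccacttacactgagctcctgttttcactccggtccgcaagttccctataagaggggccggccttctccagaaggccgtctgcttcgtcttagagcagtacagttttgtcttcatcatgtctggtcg
H4c12, chr13:21750504-21750803, minus strand: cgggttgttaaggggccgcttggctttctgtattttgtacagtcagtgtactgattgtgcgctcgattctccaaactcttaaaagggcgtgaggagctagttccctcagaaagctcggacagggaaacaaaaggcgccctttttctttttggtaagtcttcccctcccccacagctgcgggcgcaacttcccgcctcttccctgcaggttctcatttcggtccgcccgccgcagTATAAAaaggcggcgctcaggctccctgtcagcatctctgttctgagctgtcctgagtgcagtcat
H3c6, chr13:23562336-23562635, minus strand: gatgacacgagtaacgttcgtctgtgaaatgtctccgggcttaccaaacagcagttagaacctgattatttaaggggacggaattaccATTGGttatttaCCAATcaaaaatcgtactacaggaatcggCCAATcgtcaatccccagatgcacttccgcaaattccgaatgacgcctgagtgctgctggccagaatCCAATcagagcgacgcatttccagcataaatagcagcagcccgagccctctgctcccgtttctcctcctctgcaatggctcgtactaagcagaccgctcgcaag
The CCAAT letters were found in the windows of all 16 H2A, all 11 H2B and all 7 H3 genes with a window, but in 3 of 11 H4 genes, against 37.4% of all 32851 promoter windows. TATAAA was in 11 H2A, 6 H2B, 2 H3 and 8 H4 windows (13.6% of all windows). Windows of neighbours that point apart overlap, and matches on either strand count, so 1 site can be counted for both genes. The TTTATA marked in H2bc12 and H2bc15 is the TATAAA of the H2ac12 and H2ac15 windows, read on the other strand. The octamer letters were in the windows of 6 H2A and 7 H2B genes and of no H3 or H4 gene (1.74% of all windows). Those of H2ac12, H2ac8 and H2ac1 are the same sites as those of their neighbours H2bc12, H2bc8 and H2bc1. H2bc6 has more than 1 window in the table, and only 1 of them holds the octamer. The window of H2bc12 holds the octamer and that of H2bc15 does not, and both genes rose. The YY1 core letters were in 1 of 16 H2A, 2 of 11 H2B, 2 of 7 H3 and 1 of 11 H4 windows (6.05% of all windows), namely H2ac8 and its neighbour H2bc8, H2bc9, H3c10, H3c13 and H4c8. Of these, H2bc9 rose, H3c10 rose on 2 of 3 probes, H2ac8 and H3c13 were not called, and H2bc8 and H4c8 were not tested. The core letters of H2ac8 and H2bc8 are the same site. No YY1 core letters were in any window shown, but the windows shown are a choice. That of H3c10, which holds the letters, is not among them, though its middle probe rose by 1.35, against 1.16 for H3c6.

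The clusters on both chromosomes took part. On chromosome 13, 32 of 49 tested probes rose and 5 fell, with a median of 0.91. The 32 and this median include H4c3 and H2ac6, above background on no mock array. On chromosome 3, 4 of 10 rose, those of H2ac18, H2ac19 and H2bc21, and none fell, with a median of 0.35. The chromosome 3 cluster includes the bright H3c13, H3c14 and H2ac20 probes.

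Linker histone H1 closes the turns of DNA on the core, and none of its 3 tested probes, for H1f2 and H1f5, was called, with a median of 0.10. H1f5 read 257, 241 and 225 in mock and 332, 345 and 251 in TAT-CRE cells, groups that overlapped (0.52, limma adjusted p = 0.0736). At an unadjusted p under 0.05 this probe alone would pass. The probes of H1f1, H1f3, H1f4 and H1f10 were not tested.

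Most histone variants are made outside S phase too, as messages with a poly(A) tail. Of 14 tested variant probes 2 rose and 1 fell (14.3% and 7.14%, against 6.56% and 7.15% of all probes), with a median of 0.30. H2az2, a variant of H2A found at promoters, rose by 1.08, from 806, 1194 and 923 to 2041, 1832 and 1896. The tested probe of H3f3a, one of the genes of the replacement histone H3.3, fell by 0.91, from 10699, 13199 and 10793 to 6603, 5747 and 6136, with no overlap (limma adjusted p = 0.00357). H3f3b, which encodes the same protein, differed by -0.02 (adjusted p = 0.957). One probe of H2aj rose by 0.76, a call lost without mouse 2 (adjusted p = 0.0524), and its others differed by 0.44 and 0.46. H2ax, which marks DNA breaks and is made in S phase as well, differed by 0.46 (adjusted p = 0.109).

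Of 27 tested probes of genes that control histone gene transcription, 3 rose and 1 fell (11.1% and 3.7%, against 6.56% and 7.15% of all probes), with a median of 0.07. The probes of Npat differed by 0.07 and -0.08, and those of Hinfp, a factor for H4 promoters, by -0.39 and -0.21, the first of which was -0.76 and passed without mouse 1 (adjusted p = 0.0232). The CCAAT-binding subunit gene Nfyb fell by 0.75, from 970, 1060 and 984 to 623, 553 and 744, while Nfyc of the same complex rose by 0.60. The Nfyb call was lost without mouse 2 (adjusted p = 0.0699), and the Nfyc call without any 1 of the mice (adjusted p up to 0.19). E2f2, an activator of S phase genes, rose by 0.68 and 0.57 on its tested probes, the second close to the threshold (adjusted p = 0.0496). Neither passed without the mouse in the model (adjusted p = 0.0622 and 0.122). Without mouse 3 neither passed either, and the first was 0.64 (adjusted p = 0.139). Coil, of the Cajal body, differed by -0.55 on 1 probe (adjusted p = 0.059) and -0.10 on the other, and the first passed without mouse 2 (-0.67, adjusted p = 0.0348).

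Genes of histone message 3′ end processing and decay showed 1 call, a rise, among 28 tested probes (3.57%, against 6.56% of all probes), with a median of 0.02. Tut7, which adds uridines to histone messages that are being degraded, rose by 0.68 on 1 probe, a call lost without mouse 1 (adjusted p = 0.259), and its other 3 tested probes differed by -0.08, 0.18 and 0.32. The probes of Zfp473, of the U7 particle that cuts histone messages, differed by 0.72 and 0.41 (adjusted p = 0.0577 and 0.182), and without mouse 3 the first was 1.13 and passed (adjusted p = 0.00157). Upf1 and Srrt, which act in histone message decay and end formation, had 3 tested probes each, from -0.40 to -0.02 and from 0.04 to 0.37, none called. Lsm10 and Lsm11, of the same particle, differed by 0.00 and -0.34, and Eri1, a nuclease that trims the stem-loop end, by 0.03. The probes of Slbp and Casp8ap2 were above background on no array.

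Histone chaperones, which carry new histones to DNA, had no rise and 4 falls among 45 tested probes, with a median of -0.09. The 8.89% that fell is close to the 7.15% of all probes. Of these 3 were probes of Nasp, which holds the reserve of soluble H3 and H4. They fell by 0.92 to 1.08. The one with the tightest groups read 3310, 3280 and 3239 in mock and 1843, 1589 and 1645 in TAT-CRE cells. A 4th Nasp probe read 1291 to 1511 against 1123 to 1230 and differed by -0.24 (adjusted p = 0.416). Asf1a, a chaperone of H3 and H4, fell by 0.76, from 236, 251 and 292 to 187, 200 and 186, a call lost without mouse 3 (adjusted p = 0.19). Mcm2 differed by -0.52 and 1 Nap1l1 probe by -0.55 (adjusted p = 0.0837 and 0.0864), and both passed with 1 mouse left out (adjusted p = 0.034 without mouse 1 and 0.0138 without mouse 2). The other Nap1l1 probes differed by 0.45 and 0.03.

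Of 61 tested probes of S phase genes 2 rose and 3 fell (3.28% and 4.92%, against 6.56% and 7.15% of all probes), with a median of -0.06. A difference between this list and the histone genes was not tested. Both tested probes of Tk1, the thymidine kinase, fell, by 0.95 and 0.86, and the helicase subunit gene Mcm5 fell by 0.79, a call lost without mouse 3 (adjusted p = 0.0772). One probe of Rpa2, of the single-strand binding complex, rose by 1.17 while its 2 brighter probes differed by -0.12 and -0.11. One probe of Tyms rose by 0.75, and its other 4 tested probes lay between -0.02 and 0.44.

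**Figure D5:**
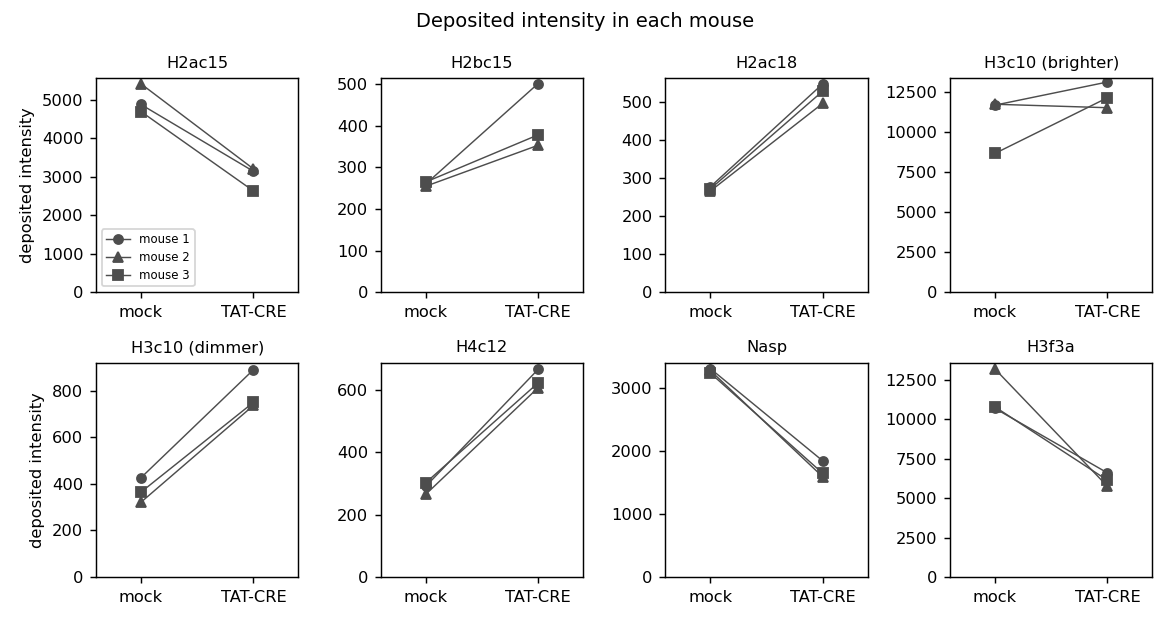
Deposited intensity (vertical axes from 0) of 6 histone probes, Nasp and H3f3a in mock and TAT-CRE cells, with a line for each of the 3 mice. H2ac15, Nasp and H3f3a lie lower and H2bc15, H2ac18, the dimmer H3c10 probe and H4c12 lie higher in TAT-CRE cells of every mouse, while the brighter H3c10 probe does not separate the groups.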

How the data were processed

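Expression was measured on 6 Illumina bead arrays from biotin-labelled cRNA, 3 mock and 3 TAT-CRE. The submitters' processing notes name GenomeStudio 1.8. The deposited table gives a linear intensity for 45281 probes, quantile normalized by the authors as the values show: sorted columns differ by at most 2.1, and array medians of 161.4 to 161.5 show that background was not subtracted. A second table with 12 columns of signals and detection p-values was not used, since its column names match no sample. With limma 3.58.1 (R 4.3.3) the first table's intensities were background-corrected by normexp with offset 16, quantile normalized again and put on the log2 scale. Probes were tested if above the 95th percentile of 1501 olfactory and vomeronasal receptor probes (169.2 to 178.2) on at least 3 arrays, 19217 in all.

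Every probe was fitted with lmFit and eBayes, with the mouse as a block and Benjamini-Hochberg adjustment over all probes tested. The pairing comes from the labels, whose source names number the mouse of each array and whose design text has each spleen divided. Deviations from group means of arrays of the same mouse correlated at 0.119, 0.0255 and 0.0539. Where no array of a group was above background, "at least" sets the brighter group's mean log2 deposited intensity against the lowest signal above background. Of the probes, 34885 have 1 gene symbol, 18 several and 10378 none. All 50 histone symbols matched RefSeq GRCm38.p6 names. The members and gene lists were chosen with earlier results of these data known. The probes named were the 5 with the smallest p in each family, calls against the common direction, genes with disagreeing probes, neighbouring H2A and H2B genes, and up to 4 genes of each related list with a fixed set of processing genes. H2ac21, H2ac24, H2bc9, H2bc18, H3c3, H3c8, H3c13, H3c14, H4c1, H4c2, H4c4, H4c6, H4c8, H4c9, H4c14, H4c17, H3f3b, the untested H1 genes and the markers described were named after their values were seen. The p-values rest on 3 mice, and eBayes draws each probe's variance toward that of all probes tested. They therefore do not measure the spread between mice of a single probe alone, and the number of arrays limits precision. The procedure was tested on simulated data with independent noise for each probe, so that test does not bear on signal shared by related histone probes. Figures used matplotlib 3.10.9 in Python 3.11.15.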

Additional observations from a re-analysis of the deposited data

How the results depend on the processing

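Alternatives covered the background correction, normalization, filter, variance model, array weights, mouse block, probe choice and each mouse left out. Of 41 called histone probes, 30 that rose and none that fell kept their call in every one of the 12 alternatives that tested them. Histone probes that fell numbered 5 (all H2A). The number was 8 with no background correction, 0 with no filter, 10 with trend and robust variance, 3 with 1 probe per gene and between 0 and 4 with a mouse left out. H3 rises numbered 5 with 1 probe per gene, where fewer probes are tested. Over all probes the counts were 497 higher and 585 lower with no filter, 884 lower with 1 probe per gene, and between 803 and 1249 higher and between 848 and 1349 lower with a mouse left out.

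Family medians per mouse depended on the background correction. In mice 1, 2 and 3 with no correction, H2B was 0.87, 0.83 and 0.85 and H4 0.68, 0.70 and 0.71, and H3 in mice 2 and 3 was 0.80 and 0.57. With offset 50, H2B in mice 1 and 2 was 1.005 and 0.93 and H4 in the 3 mice 0.87, 0.84 and 0.83. Without the mouse as a replicate block, 36 histone probes rose and 4 fell, so the pairing changed the call of H2ac11 among histone probes. Over all probes the counts without the replicate block were 1185 higher and 1231 lower.

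Differences near 0 that were called in no setting changed sign for H2ac8 (-0.0323 to 0.407 with a mouse left out), Npat (-0.0593 to 0.253) and H1f2 (-0.112 to 0.30, and -0.0247 with array weights). Those of Eri1 did with a mouse left out (-0.154 to 0.127), with no background correction (-0.0107) and with array weights (-0.0399). Those of Lsm10 did with a mouse left out (-0.15 to 0.307), with no background correction (-0.000929) and with cyclic loess (-0.00679). Leaving out the probes above background on no mock array, an alternative chosen after seeing the data, gave 34 rises and 5 falls. The cause of these shifts was not tested. Probes near background, among them H2ac6 and H4c3, carry the least certain sizes.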
